A study of Mus musculus with 18 samples.

Results

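The genes described here are the enzymes, carriers and regulators of fatty acid oxidation and the classical targets of PPARalpha in mouse liver. They were a list of 43 gene symbols, and a gene entered when a transcript cluster of the array carried that symbol alone. Where several clusters did, the cluster with the highest mean over all 18 arrays was taken. Of the 43 genes, 42 were found, among 36230 gene symbols that stood alone on a cluster. Etfb, the beta subunit of the electron transfer flavoprotein, shared its cluster with a microRNA and was not analysed. No measured difference between groups was used to choose the genes, but the list was drawn up with earlier results of these data known.

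Total RNA from the livers of 18 male mice was hybridised to the Affymetrix Mouse Transcriptome Array 1.0, with 1 array for each animal. All the mice had received adeno-associated virus (AAV), a vector that carries a gene into hepatocytes. The labels give 3 livers marked HPNWT and 3 marked EGFP at day 1, the same numbers at day 2 and the same numbers at day 4, which makes 6 groups of 3. The design text states that hepsin, a membrane serine protease, was overexpressed in the liver, and EGFP is enhanced green fluorescent protein. The mice are called adult and healthy. Their strain and age in weeks, the promoter and dose of the vector, the sequence of the hepsin transgene and the event from which the days were counted are not given in the sources used here. Every comparison was HPNWT minus EGFP at the same day, and the days share no array.

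Hpn, the mouse gene of hepsin, did not separate the groups. Its log2 signal lay at 8.10 to 8.47 in arrays labelled HPNWT and at 8.25 to 8.42 in arrays labelled EGFP at day 1, at 8.16 to 8.21 and 8.23 to 8.31 at day 2, and at 8.11 to 8.62 and 8.09 to 8.30 at day 4. The difference was -0.06 at day 1, -0.08 at day 2 and 0.11 at day 4 (limma adjusted p = 0.894, 0.731 and 0.809). HPNWT and EGFP are therefore labels in what follows, and each direction rests on the labels and not on a rise of Hpn. The 8 hepatocyte markers averaged 11.49 to 11.67 in arrays labelled HPNWT and 11.52 to 11.64 in arrays labelled EGFP over all days. The tissue is whole liver, so fewer cells of a type and less RNA per cell cannot be told apart.

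Fatty acids enter hepatocytes, are bound by fatty acid binding protein and are activated to acyl-CoA. Long chains cross the mitochondrial membranes as carnitine esters and are shortened by beta-oxidation, while peroxisomes shorten very long and branched chains, and the acetyl-CoA released feeds ketone body synthesis. PPARalpha is a nuclear receptor that binds fatty acids and, as a heterodimer with RXR, drives many of these genes in the fasted liver through direct repeats of a hexamer spaced by a base pair.

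Promoters are shown for Fabp1, a textbook PPARalpha target and the only one of these genes in whose promoter window such a repeat was found, and for Acsl5 and Nudt7, the genes that differed between the groups at all 3 days. The repeat was searched as AGGNCANAGGNCA on both strands of the RefSeq windows of 250 bases before and 50 bases after each start (GRCm38.p6). A window was found for 37 of the 42 genes. The repeat was found in 125 of 32851 mouse promoters, 0.381%, and in 1 of the 37 genes. The 250 bases before the start are given 5′ to 3′, with the match to the opposite strand, at -67 to -55, in capitals. A start here need not be the first base of the gene. The Acsl5 window lies inside the gene, which begins at 55251861. The Nudt7 window shown runs past the start of the gene at 114133574. Another Nudt7 window, chr8:114133324-114133573, ends before that start, holds no match and is not shown. A match is a run of letters and does not show that the receptor binds there.
Fabp1 promoter, chr6:71199629-71199878, plus strand: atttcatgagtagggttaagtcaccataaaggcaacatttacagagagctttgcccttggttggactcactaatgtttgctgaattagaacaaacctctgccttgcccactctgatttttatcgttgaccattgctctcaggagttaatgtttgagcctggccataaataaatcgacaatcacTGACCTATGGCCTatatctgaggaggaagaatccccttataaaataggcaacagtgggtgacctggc
Acsl5 promoter, chr19:55253119-55253368, plus strand: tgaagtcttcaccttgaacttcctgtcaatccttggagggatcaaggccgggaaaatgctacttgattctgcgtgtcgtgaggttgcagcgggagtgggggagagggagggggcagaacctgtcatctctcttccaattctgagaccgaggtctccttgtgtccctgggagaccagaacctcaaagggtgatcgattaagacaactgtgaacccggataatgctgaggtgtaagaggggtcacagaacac
Nudt7 promoter, chr8:114133368-114133617, plus strand: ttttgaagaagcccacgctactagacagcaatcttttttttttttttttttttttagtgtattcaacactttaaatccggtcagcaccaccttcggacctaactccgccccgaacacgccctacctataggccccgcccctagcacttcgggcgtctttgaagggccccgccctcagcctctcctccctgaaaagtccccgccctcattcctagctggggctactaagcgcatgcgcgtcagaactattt

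Within the groups, the genes of fatty acid oxidation were not equally steady, and the library HPNWT day 4 replicate 3 stood apart. It was above both other arrays of its group in 39 of 42 genes, and it was the highest of all 18 arrays in 11. Its median deviation from the mean of those other arrays was 0.35 log2 over all 42 genes. The same counts over all clusters are not given here, so they do not show whether this is particular to these genes. Acot2, a mitochondrial acyl-CoA thioesterase, had 7.40, 8.02 and 9.48 log2 in arrays labelled HPNWT at day 4, against 6.80, 7.59 and 7.94 in arrays labelled EGFP. Pdk4, the kinase that shuts off pyruvate dehydrogenase, had 5.74, 6.06 and 7.52 in arrays labelled HPNWT, against 5.70, 6.12 and 6.44 in arrays labelled EGFP. In both genes the last value of the HPNWT group lay above all other arrays and its other arrays lay within the range of the EGFP arrays, apart from Acot2 at 8.02. The day 4 difference of Acot2 was 0.86 with that library and 0.27 without it, that of Pdk4 0.35 and -0.19, and that of Cpt1a 0.19 and -0.04. In 7 genes (Slc27a2, Cpt1a, Acadm, Ehhadh, Decr2, Acot4 and Pdk4) the sign of the day 4 difference changed without it. The day 4 counts, and the day 4 differences of the genes that rest on this library, are given with and without it. Beside the genes whose values without it stand with their own results, the differences that moved by over 0.1 log2 were those of Cd36 (0.28 with it, 0.04 without), Vnn1 (0.48 and 0.30), Ehhadh (0.07 and -0.09), Acadl (-0.17 and -0.29), Acads (-0.07 and -0.20), Acadm (0.03 and -0.11), Hadha (-0.06 and -0.18), Crat (-0.06 and -0.41), Eci2 (-0.37 and -0.51), Pex11a (-0.10 and -0.23), Acot1 (-0.21 and -0.52) and Acot4 (0.22 and -0.04), and none of these passed either way. The same array had the highest mean marker level of its day for 4 other cell types: Kupffer cells at 7.16 against 6.50 to 6.71 in the other HPNWT arrays and 6.67 to 7.05 in the EGFP arrays, endothelium at 7.58 against 7.01 to 7.02 and 7.04 to 7.16, stellate cells at 7.04 against 6.42 to 6.48 and 6.32 to 6.57, and cholangiocytes at 5.35 against 5.15 to 5.17 and 4.82 to 4.94. The part of other cells in its values was not tested.

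At day 2, the library HPNWT day 2 replicate 2 was the lowest of all 18 arrays in 11 genes and below both other arrays of its group in 25. Its median deviation from the mean of those arrays was -0.11 log2 over all 42 genes. These counts also stand without those over all clusters. Without it 1 gene was lower at day 2, against 5 with all arrays, and the median difference was -0.11 against -0.14. Leaving out any other array of day 2 also lowered that count. It was 1 without EGFP replicate 1, and 2 without EGFP replicate 2, EGFP replicate 3 or HPNWT replicate 3. Without HPNWT replicate 1 it was 3. The drop is therefore not particular to this library, and the shares of all clusters in these fits are not given here.

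**Figure D1:**
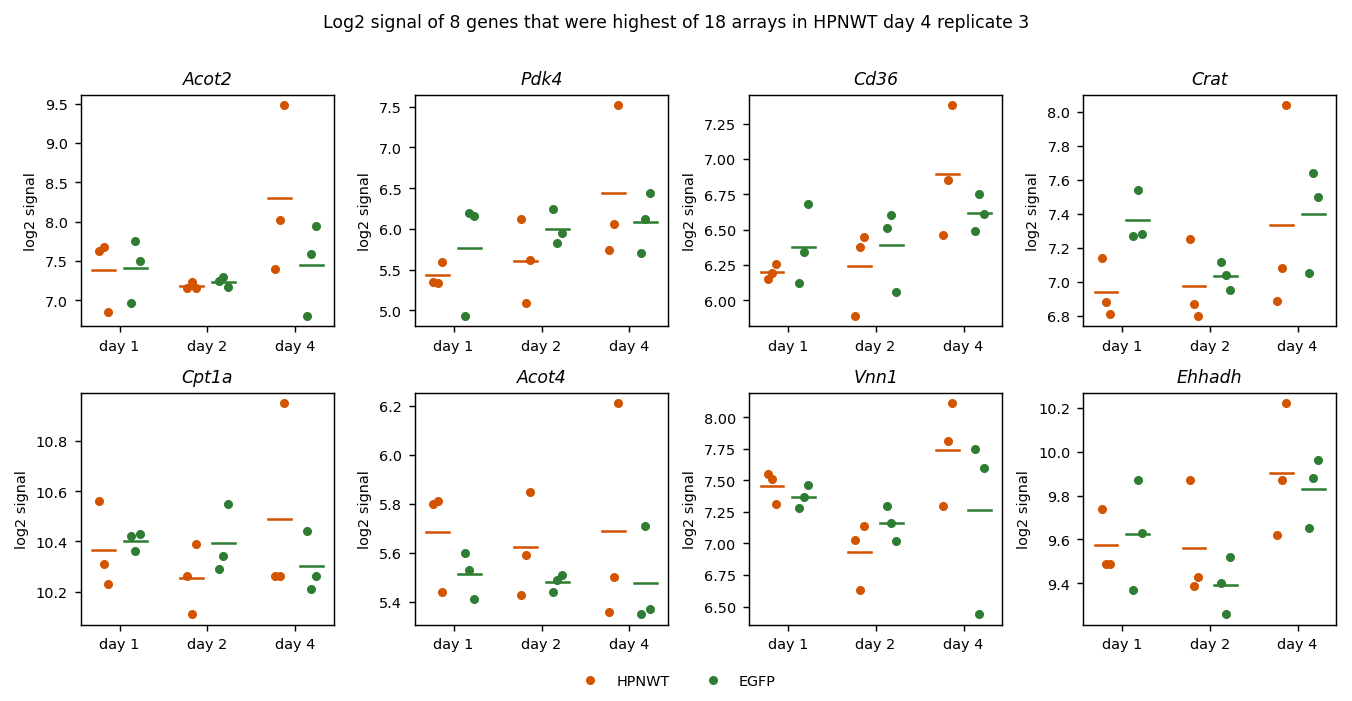
Log2 signal (vertical axis) of 8 of the 11 genes whose highest value among 18 arrays was in HPNWT day 4 replicate 3, by day, with HPNWT left of EGFP. Each point is an array and each line a group mean, and the genes are those with the largest gap to the next array, 1.46 log2 for Acot2 and 0.26 for Ehhadh.

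At day 1, 3 of the 42 genes were higher in livers labelled HPNWT and 3 were lower. Acsl5 and Bdh1 were higher by 0.78 and 0.85 log2, which are ratios of 1.72 and 1.80, and Fabp1 by 0.36. Nudt7 was lower by more than a log2 unit, at a ratio of 0.454, and the peroxisomal thiolases Acaa1a and Acaa1b by 0.55 and 0.71. In percent, 7.14% of the genes were higher and 7.14% lower, against 2.97% and 1.62% of all 40161 clusters with a gene symbol. A gene counted when its limma p-value, adjusted by Benjamini-Hochberg over all those clusters, was under 0.05. Arrays did not overlap in 6 genes with HPNWT higher, 14.3% against 10.0% of all clusters, and in 9 with HPNWT lower, 21.4% against 8.21%.

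At day 2, Acsl5 was higher and 5 genes were lower in livers labelled HPNWT: Cpt2, Etfdh, Acaa1a, Acaa1b and Nudt7. Those are 2.38% and 11.9% of the 42 genes, against 2.16% and 3.51% of all clusters. Of the 42 differences 33 were negative, with a median of -0.14 log2, while 37.1% of all clusters were negative and their median was 0.05. The median of the 42 was -0.02 under repeated quantile normalization and -0.04 with the negative controls as a covariate. Arrays did not overlap with HPNWT lower in 18 genes, 42.9% against 13.1% of all clusters, and with HPNWT higher in 3 genes, 7.14% against 21.2%. The probe sets named as negative controls on the array had a median of 3.04 in arrays labelled HPNWT and 3.41 in arrays labelled EGFP at that day. What their probes match is not given in the sources used here. A limma fit that included this median of each array called 0 of the 42 genes lower at day 2, with 2 at an unadjusted p under 0.05. The medians of single arrays were 2.99 to 3.09 in HPNWT and 3.27 to 3.55 in EGFP at that day, without overlap. The covariate therefore nearly followed the label, and that fit can hardly tell the 2 apart. Acsl5 was at 0.98 in it (limma adjusted p = 0.00194), against 0.91 without the covariate (1.24e-05). The share of all clusters called in that fit is not given here, and the part of the control level in the results was not tested further.

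At day 4, Acsl5 was higher, and Cpt2 and Nudt7 were lower, in livers labelled HPNWT, which are 2.38% and 4.76% of the genes against 1.54% and 0.67% of all clusters. Arrays did not overlap in 2 genes with HPNWT higher, 4.76% against 9.91% of all clusters, and in 5 with HPNWT lower, 11.9% against 5.70%. Without HPNWT day 4 replicate 3, Acsl5 remained higher and 5 genes were lower, Cpt2, Etfdh, Acaa1b, Ech1 and Nudt7, against 1.35% higher and 1.09% lower of all clusters. The median of the 42 differences was -0.07 with that library and -0.17 without it, and 25 of 42 were negative with it and 32 without. Leaving out HPNWT day 4 replicate 1 or replicate 2 instead gave a median of -0.01 and -0.02, and the negative controls as a covariate gave -0.02.

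Across the days 8 of the 42 genes passed at least once, against 8.84% of all clusters, and 34 at none. Acsl5 was the only gene of the 42 higher at all 3 days, as were 0.533% of all clusters, and Nudt7 the only gene lower at all 3, as were 0.271%. The difference had the same sign at all 3 days in 26 genes, negative in 20 and positive in 6, and it stayed within 0.25 log2 of 0 at every day in 21.

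**Figure D2:**
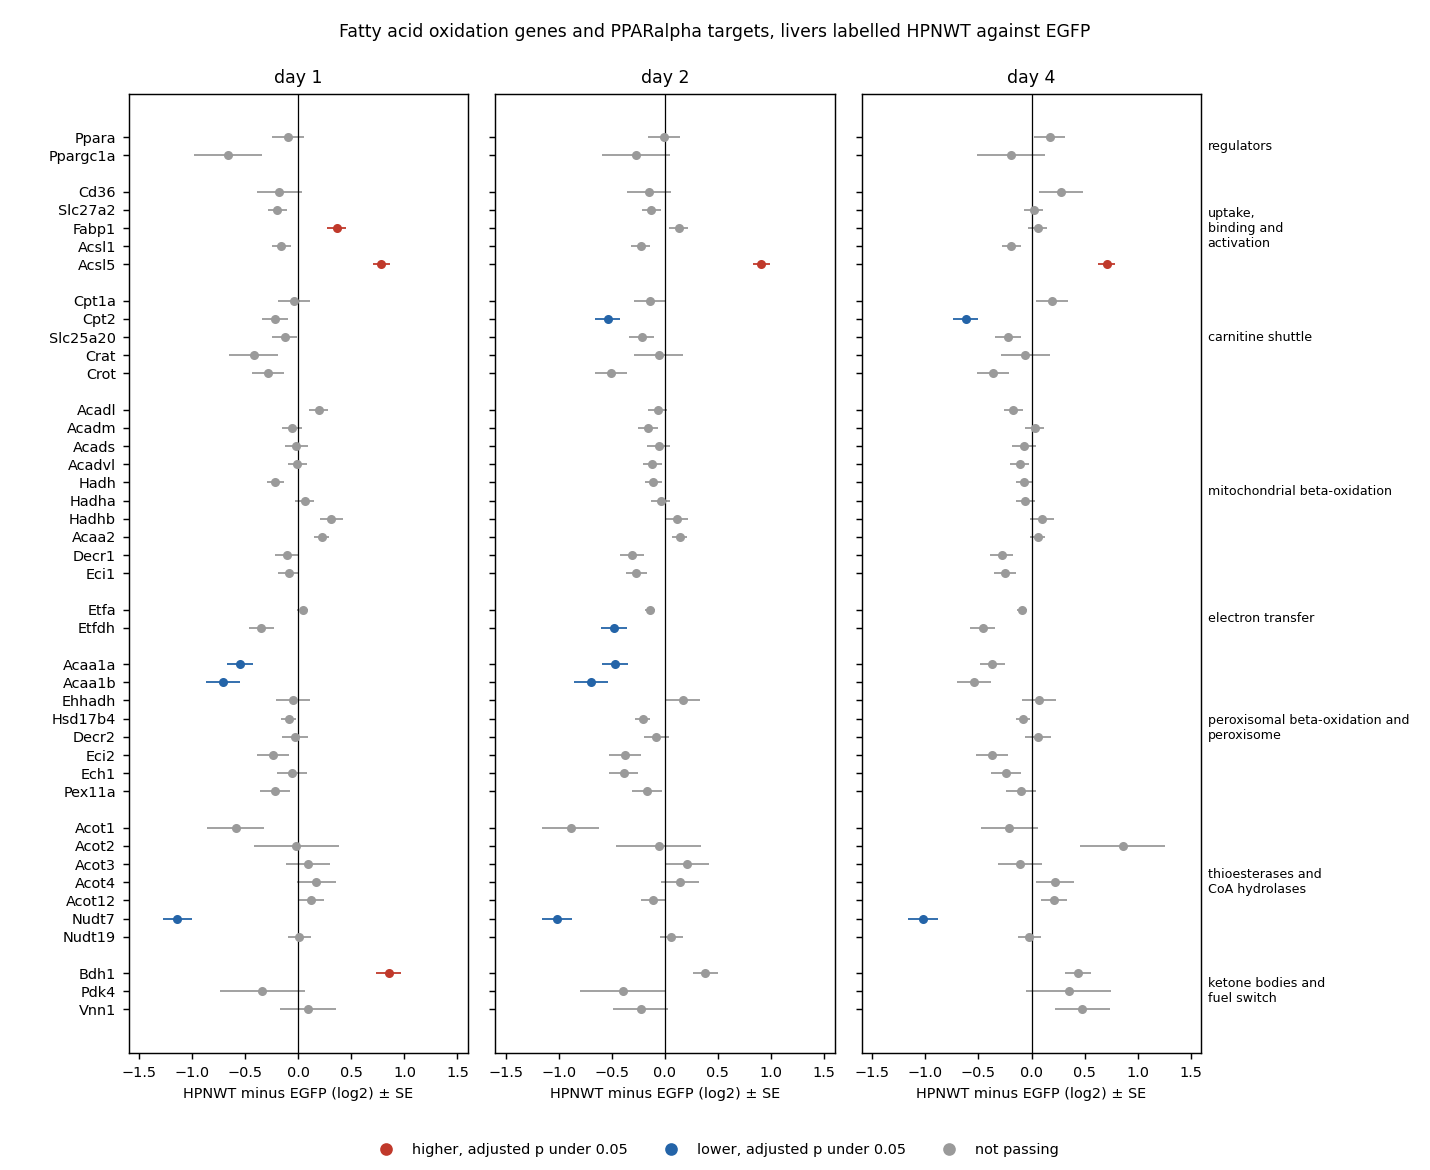
Difference HPNWT minus EGFP (log2, horizontal axes) of the 42 genes, grouped by role, at day 1, day 2 and day 4. Points are limma estimates over 3 arrays a group and bars are standard errors, with genes that passed in red (higher) or blue (lower), and Acsl5 and Nudt7 are coloured in all 3 panels.

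The regulators did not pass at any day. Ppara, the receptor itself, had 9.06, 8.97 and 8.53 log2 in arrays labelled HPNWT at day 1, against 9.04, 9.06 and 8.78 in arrays labelled EGFP. It had 8.84, 8.76 and 8.86 in arrays labelled HPNWT at day 2, against 8.74, 8.61 and 9.14 in arrays labelled EGFP, and 8.86, 8.63 and 8.94 in arrays labelled HPNWT at day 4, against 8.85, 8.51 and 8.56. The groups overlapped at each day. The differences were -0.10, -0.01 and 0.17 (SE 0.15 each, limma adjusted p = 0.844, 0.977 and 0.743). Ppargc1a, the coactivator PGC-1alpha, lay near or below 6.16 log2, the mean 95th percentile of the negative controls, which is used here as a mark of a dim signal. It had 5.65, 5.54 and 5.61 in arrays labelled HPNWT at day 1, against 5.41, 6.47 and 6.90 in arrays labelled EGFP. It had 5.74, 5.97 and 5.77 in arrays labelled HPNWT at day 2, against 5.72, 6.27 and 6.30 in arrays labelled EGFP, and 5.79, 5.83 and 6.64 in arrays labelled HPNWT at day 4, against 6.34, 6.78 and 5.69. The groups overlapped at each day. Its differences were -0.66, -0.27 and -0.19 (SE 0.32 each, limma adjusted p = 0.344, 0.669 and 0.892), and -0.46 at day 4 without HPNWT day 4 replicate 3.

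Among the 5 genes of uptake, binding and activation, the acyl-CoA synthetase Acsl5 rose at all 3 days and Fabp1 at day 1. Acsl5, which activates long-chain fatty acids, had 10.57, 10.63 and 10.70 log2 in arrays labelled HPNWT at day 1, against 9.69, 9.91 and 9.96 in arrays labelled EGFP. At day 2 it had 10.66, 10.84 and 10.75 in arrays labelled HPNWT, against 9.84 in each array labelled EGFP. At day 4 it had 10.69, 10.77 and 10.82 in arrays labelled HPNWT, against 9.95, 10.13 and 10.07 in arrays labelled EGFP. The lowest of the 9 HPNWT values was above the highest of the 9 EGFP values. The differences were 0.78, 0.91 and 0.71 (SE 0.08 each), ratios of 1.72, 1.88 and 1.64, with limma adjusted p = 3.04e-05, 1.24e-05 and 7.58e-05. The call held in all 27 alternatives at each day.

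Fabp1, the fatty acid binding protein of liver, had 11.70, 11.76 and 11.55 log2 in arrays labelled HPNWT at day 1, against 11.47, 11.28 and 11.17 in arrays labelled EGFP, with no overlap. The difference was 0.36 (SE 0.09, limma adjusted p = 0.0244). It had 11.45, 11.35 and 11.45 in arrays labelled HPNWT at day 2, against 11.26, 11.17 and 11.42 in arrays labelled EGFP, and 11.52, 11.47 and 11.58 in arrays labelled HPNWT at day 4, against 11.41, 11.39 and 11.58. The groups overlapped at both later days, with differences of 0.13 and 0.06 (limma adjusted p = 0.42 and 0.86). The day 1 call ended when any of 4 arrays of that day was left out (EGFP replicates 2 and 3, HPNWT replicates 1 and 2), with differences of 0.30 to 0.35 and limma adjusted p = 0.0874 to 0.121. It also ended with the negative controls as a covariate (0.30, limma adjusted p = 0.118) and in the fit of that day alone (0.36, 0.133). The synthetase Acsl1, the transporter Slc27a2 and the scavenger receptor Cd36 did not pass, with differences between -0.23 and 0.28. Acsl1 was at -0.16, -0.23 and -0.19 at day 1, day 2 and day 4 (SE 0.09 each, limma adjusted p = 0.47, 0.176 and 0.443).

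In the carnitine shuttle, Cpt2 fell at day 2 and day 4 and Cpt1a did not pass at any day. Cpt2, the inner-membrane palmitoyltransferase that turns acylcarnitine back into acyl-CoA, had 9.27, 9.21 and 9.28 log2 in arrays labelled HPNWT at day 1, against 9.32, 9.53 and 9.57 in arrays labelled EGFP. At day 2 it had 8.86, 8.60 and 8.85 in arrays labelled HPNWT, against 9.38, 9.27 and 9.28 in arrays labelled EGFP. At day 4 it had 8.50, 8.73 and 9.14 in arrays labelled HPNWT, against 9.41, 9.35 and 9.48 in arrays labelled EGFP. The groups did not overlap at any day, and the array nearest to the EGFP values at day 4 was HPNWT day 4 replicate 3. The differences were -0.22, -0.54 and -0.62 (SE 0.12 each, limma adjusted p = 0.421, 0.0159 and 0.00957), and -0.80 at day 4 without that library (limma adjusted p = 0.000222). The day 2 call ended without EGFP day 2 replicate 1 (-0.50, limma adjusted p = 0.0552), EGFP day 2 replicate 2 (-0.56, 0.0547) or HPNWT day 2 replicate 2 (-0.45, 0.0922), under repeated quantile normalization (-0.40, 0.0619) and with the negative controls as a covariate (-0.37, 0.633). The day 4 call ended with median centring (-0.60, limma adjusted p = 0.0692) and in the fit of that day alone (-0.62, 0.225).

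Cpt1a, the outer-membrane palmitoyltransferase whose inhibition by malonyl-CoA controls entry into mitochondria, had 10.56, 10.31 and 10.23 log2 in arrays labelled HPNWT at day 1, against 10.42, 10.36 and 10.43 in arrays labelled EGFP. It had 10.26, 10.11 and 10.39 in arrays labelled HPNWT at day 2, against 10.29, 10.34 and 10.55 in arrays labelled EGFP, and 10.26, 10.26 and 10.95 in arrays labelled HPNWT at day 4, against 10.44, 10.21 and 10.26. The groups overlapped at each day, and the differences were -0.04, -0.14 and 0.19 (SE 0.15 each, limma adjusted p = 0.95, 0.633 and 0.714). Slc25a20, the carnitine-acylcarnitine carrier, Crat, the acetyltransferase, and Crot, the octanoyltransferase of peroxisomes, did not pass either. Crot came closest, at -0.51 at day 2 with no overlap between the groups (limma adjusted p = 0.0628), and was at -0.29 at day 1 and -0.36 at day 4. At day 1 and day 2 all 5 shuttle genes had negative differences, with a median of -0.22 at both.

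None of the 10 genes of mitochondrial beta-oxidation passed at any day in limma, although 3 at day 1, 2 at day 2 and 2 at day 4 had an unadjusted p under 0.05. Their differences ran from -0.22 to 0.31 at day 1, from -0.31 to 0.14 at day 2 and from -0.28 to 0.10 at day 4. The subunit genes of the trifunctional protein, Hadha and Hadhb, which lie next to each other on chromosome 5, had 0.06 and 0.31 at day 1, and the thiolase Acaa2 had 0.22. Hadhb and Acaa2 showed no overlap between the groups at that day and did not pass (limma adjusted p = 0.136 and 0.113). Hadh went the other way, at -0.22, -0.11 and -0.07 at day 1, day 2 and day 4. Its groups were apart at day 1 and day 2, with HPNWT lower, and it did not pass (limma adjusted p = 0.191, 0.485 and 0.84). The acyl-CoA dehydrogenases Acadm, Acads and Acadvl lay between -0.16 and 0.03 at all days, and Acadl was at 0.19, -0.07 and -0.17. Decr1 and Eci1, the auxiliary enzymes for unsaturated chains, were at -0.31 and -0.27 at day 2 with no overlap (limma adjusted p = 0.131 and 0.148). Without HPNWT day 4 replicate 3 they were at -0.40 and -0.38 at day 4 (limma adjusted p = 0.0756 and 0.0531), and neither passed.

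In electron transfer, Etfdh fell at day 2. This enzyme passes electrons of the acyl-CoA dehydrogenases to ubiquinone. It had 8.38, 8.46 and 8.64 log2 in arrays labelled HPNWT at day 1, against 8.57, 8.99 and 8.98 in arrays labelled EGFP, which overlap. At day 2 it had 8.47, 8.22 and 8.47 in arrays labelled HPNWT, against 8.88, 8.86 and 8.84 in arrays labelled EGFP, and at day 4 it had 8.24, 8.32 and 8.61 in arrays labelled HPNWT, against 8.87, 8.73 and 8.94. The groups did not overlap at day 2 or day 4. The differences were -0.35, -0.48 and -0.46 (SE 0.12 each, limma adjusted p = 0.122, 0.0276 and 0.0598), and -0.57 at day 4 without HPNWT day 4 replicate 3 (limma adjusted p = 0.0165). The day 2 call ended without any of the 6 arrays of that day, at limma adjusted p = 0.0502 (without HPNWT day 2 replicate 3) to 0.142 (without HPNWT day 2 replicate 2), with differences of -0.39 to -0.52, and also with median centring (-0.53, 0.0502) and with the negative controls as a covariate (-0.24, 0.776). Etfa, the alpha subunit of the flavoprotein that hands those electrons on, had 0.04, -0.14 and -0.09 and did not pass.

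Of the 8 peroxisomal genes, the 3-ketoacyl-CoA thiolases Acaa1a and Acaa1b fell at day 1 and day 2. They are close copies that lie near each other on chromosome 9, and probes may read RNA of both, so they are uncertain as separate results. Acaa1b had 9.52, 9.04 and 9.25 log2 in arrays labelled HPNWT at day 1, against 9.70, 10.14 and 10.09 in arrays labelled EGFP, and 9.14, 8.96 and 8.90 in arrays labelled HPNWT at day 2, against 9.77, 9.57 and 9.76. At day 4 it had 9.18, 9.32 and 9.82 in arrays labelled HPNWT, against 10.07, 9.78 and 10.10 in arrays labelled EGFP, and HPNWT day 4 replicate 3 at 9.82 made the overlap. The differences were -0.71, -0.70 and -0.54 (SE 0.16 each, limma adjusted p = 0.0183, 0.0177 and 0.11), and -0.73 at day 4 without that library (limma adjusted p = 0.0142).

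Acaa1a had 8.40, 8.01 and 8.14 log2 in arrays labelled HPNWT at day 1, against 8.57, 8.87 and 8.75 in arrays labelled EGFP, and 8.16, 7.98 and 8.11 in arrays labelled HPNWT at day 2, against 8.57, 8.45 and 8.63. At day 4 it had 8.15, 8.23 and 8.49 in arrays labelled HPNWT, against 8.83, 8.44 and 8.72 in arrays labelled EGFP. The groups were apart at day 1 and day 2 and overlapped at day 4. The differences were -0.55, -0.47 and -0.37 (SE 0.12 each, limma adjusted p = 0.0158, 0.033 and 0.164), and -0.47 at day 4 without HPNWT day 4 replicate 3 (limma adjusted p = 0.0655). At day 1 both thiolases lost the call when EGFP replicate 2, EGFP replicate 3 or HPNWT replicate 2 of that day was left out, with limma adjusted p = 0.0561 to 0.0928 for Acaa1a (differences -0.46 to -0.54) and 0.0769 to 0.104 for Acaa1b (-0.60 to -0.65). At day 2 Acaa1a lost it without any of the 6 arrays of that day (0.0606 to 0.144, differences -0.41 to -0.52), and Acaa1b lost it without EGFP replicates 1 or 3 and without HPNWT replicates 2 or 3 (0.0575 to 0.0718, differences -0.65 to -0.68). With median centring the calls of Acaa1a at day 1 and day 2 and of Acaa1b at day 1 ended (limma adjusted p = 0.0707, 0.0573 and 0.0667), in the fit of day 1 alone both calls ended (0.0717 and 0.0641), and with the negative controls as a covariate all 4 calls ended (0.0755 to 0.695).

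The other 6 peroxisomal genes did not pass in the fit of all 18 arrays. Eci2 and Ech1, isomerases for unsaturated chains, and Hsd17b4, the D-bifunctional protein, were at -0.38, -0.39 and -0.21 at day 2 with no overlap between the groups (limma adjusted p = 0.149, 0.114 and 0.11). Ech1 had 7.81, 7.89 and 8.51 log2 in arrays labelled HPNWT at day 4, against 8.40, 8.19 and 8.33 in arrays labelled EGFP, and its difference was -0.24 with HPNWT day 4 replicate 3 and -0.46 without it (limma adjusted p = 0.55 and 0.0142). Ehhadh, the L-bifunctional protein and a strong PPARalpha target in rodents, was at -0.05, 0.17 and 0.07, and Decr2 and Pex11a, which divides peroxisomes, lay between -0.22 and 0.06.

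Among the thioesterases and CoA hydrolases, Nudt7 fell at all 3 days. It is a peroxisomal enzyme that cleaves CoA and acyl-CoA. It had 9.65, 9.56 and 9.82 log2 in arrays labelled HPNWT at day 1, against 10.78, 10.86 and 10.81 in arrays labelled EGFP. At day 2 it had 9.90, 9.76 and 10.53 in arrays labelled HPNWT, against 10.94, 11.21 and 11.11 in arrays labelled EGFP, and at day 4 it had 9.85, 9.89 and 9.97 in arrays labelled HPNWT, against 11.01, 10.98 and 10.78. The highest HPNWT array, replicate 3 of day 2 at 10.53, was below the lowest EGFP array. The differences were -1.14, -1.02 and -1.02 (SE 0.14 each), ratios of 0.454, 0.493 and 0.492, with limma adjusted p = 0.000277, 0.000762 and 0.000791. The day 2 call ended with the negative controls as a covariate (-0.77, limma adjusted p = 0.231).

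The array carries 4 clusters for Nudt7, and all had negative differences at each day. The cluster above, the brightest, and another pair have no mapped position in their identifier. The cluster whose identifier places it on a chromosome was at -1.09, -1.15 and -0.97 (SE 0.16 each, limma adjusted p = 0.00108, 0.000796 and 0.00358). The remaining pair had -1.91, -1.99 and -1.36, and -1.17, -1.48 and -0.41 (SE 0.39 each), and neither passed at day 4 (limma adjusted p = 0.0916 and 0.766). The dimmer cluster of that pair passed at day 2 alone, with limma adjusted p = 0.109 at day 1. When clusters of a symbol were averaged, the day 4 difference of Nudt7 was -0.94 and did not pass (limma adjusted p = 0.0605).

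Nudt19, which cleaves CoA in kidney peroxisomes of mice, was at 0.01, 0.06 and -0.02. Acot1, Acot2, Acot3 and Acot4 lie beside each other on chromosome 12, and Acot1, the cytosolic enzyme, and Acot2, the mitochondrial one, are close copies that probes may not keep apart. Acot1 had 5.38, 5.22 and 5.50 log2 in arrays labelled HPNWT at day 2, against 6.19, 6.03 and 6.55 in arrays labelled EGFP, with no overlap. Its difference of -0.89 (SE 0.27, limma adjusted p = 0.0667) did not pass and had the largest size among the genes called at no day, and its HPNWT mean was under the dim mark. Acot3 and Acot4 were under that mark in every group mean, and Acot12, a cytosolic acetyl-CoA thioesterase, was at 0.12, -0.11 and 0.21.

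In the ketone body and fuel genes, Bdh1 rose at day 1. Bdh1, the mitochondrial dehydrogenase that interconverts acetoacetate and beta-hydroxybutyrate, had 9.14, 8.99 and 8.82 log2 in arrays labelled HPNWT at day 1, against 8.05, 8.18 and 8.17 in arrays labelled EGFP. It had 8.46, 8.47 and 8.52 in arrays labelled HPNWT at day 2, against 8.17, 7.95 and 8.19 in arrays labelled EGFP, and 8.46, 8.51 and 8.85 in arrays labelled HPNWT at day 4, against 8.24, 7.91 and 8.33. The groups did not overlap at any day. The differences were 0.85, 0.38 and 0.44 (SE 0.12 each), ratios of 1.80, 1.30 and 1.36, with limma adjusted p = 0.000654, 0.0752 and 0.0696, and 0.32 at day 4 without HPNWT day 4 replicate 3 (limma adjusted p = 0.205). Pdk4 and Vnn1, the pantetheinase vanin-1, did not pass. They varied more within groups than most of the 42 genes, with pooled SDs of 0.562 and 0.365, against a median of 0.159.

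**Figure D3:**
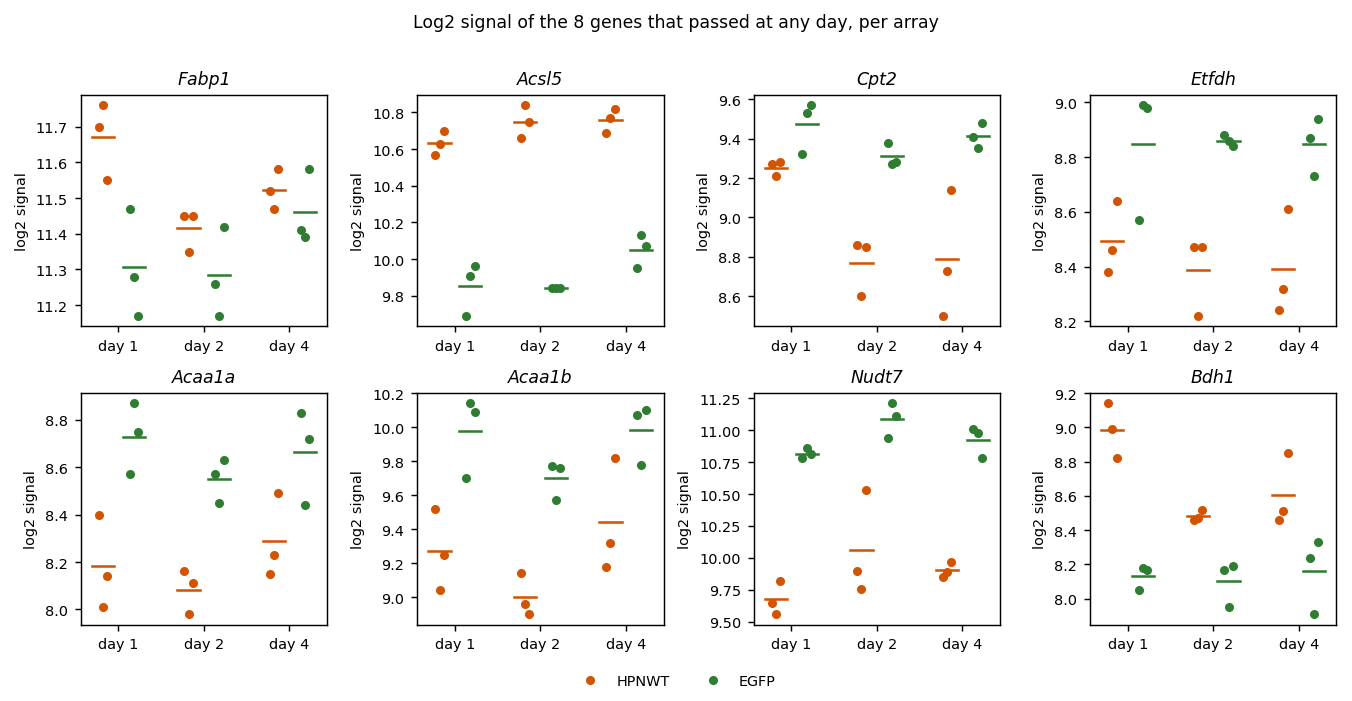
Log2 signal (vertical axis) of the 8 genes that passed at any day, by day, with HPNWT left of EGFP. Each point is an array and each line a group mean, and the groups are apart at all 3 days in Acsl5, Cpt2, Nudt7 and Bdh1.

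Whether the difference itself changed between days was tested for each pair of days. None of the 42 genes passed in limma. Day 2 against day 1 had 2 genes with an unadjusted p under 0.05 (Etfa and Bdh1), day 4 against day 2 had 0, and day 4 against day 1 had 4 (Fabp1, Cpt2, Acadl and Bdh1), while 0.0%, 0.00498% and 0.0946% of all clusters passed. A call of Fabp1 or Bdh1 at day 1 alone, or of Cpt2 at the later days alone, is therefore not shown to be a difference between days. Among the HPNWT days none of the 42 genes passed the limma F-test, against 0.64% of all clusters, with 15 at an unadjusted p under 0.05 and a lowest adjusted p of 0.105. Without HPNWT day 4 replicate 3, 4 of the 42 passed that test, and the share of all clusters in that fit is not given here. The share of all clusters at an unadjusted p under 0.05 is not given either, so both counts stand without a comparison. Among the EGFP days none passed, against 0.0% of all clusters, with 2 (Acsl5 and Ehhadh) at an unadjusted p under 0.05.

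The same genes were read from the authors' deposited comparison tables, whose group averages span a wider scale than the value table. In the authors' deposited tables, 3 of the 42 genes were higher and 3 lower at day 1 at a false discovery rate under 0.05, where 3.51% and 1.93% of all clusters were. At day 2 the authors' deposited tables had 2 higher and 5 lower, where 2.56% and 3.42% of all clusters were, and 1 was higher and 3 lower at day 4, where 1.55% and 0.73% were. The authors' deposited tables give Acsl5 linear folds of 3.06, 3.53 and 2.75 at day 1, day 2 and day 4, and give Nudt7 signed folds of -4.78, -4.90 and -4.51, where a negative sign means lower in HPNWT. Bdh1 has folds of 3.18 at day 1 and 1.49 at day 2 in the authors' deposited tables, and the day 2 difference passed there and not in limma. The authors' deposited tables also pass Etfdh at day 4, with a signed fold of -2.01. The authors' deposited difference was the larger in size in 41, 34 and 36 of the 42 genes at day 1, day 2 and day 4, so a fold depends on the table it is read from. Some small differences also had another sign there. At day 4 Hadhb was at 0.10 in the value table and -0.09 in the authors' averages, Acadm at 0.03 and -0.15, and Acot4 at 0.22 and -0.07. These genes passed in neither source.

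**Figure D4:**
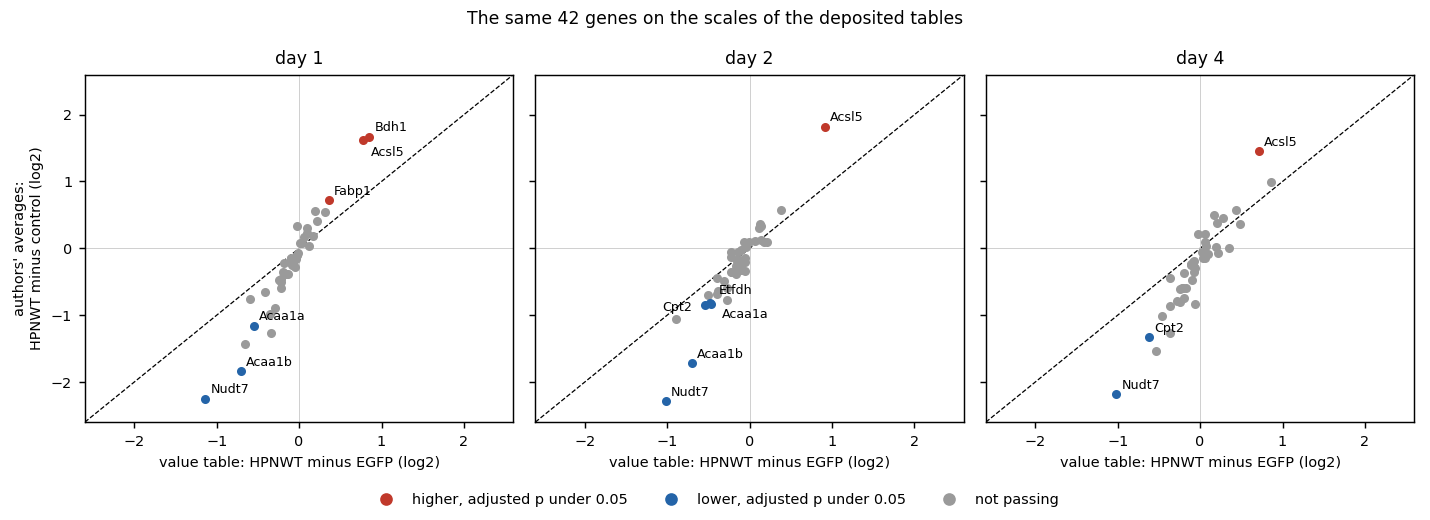
Difference HPNWT minus EGFP of the 42 genes in the value table (log2, horizontal axes) against HPNWT minus control in the authors' deposited group averages (log2, vertical axes), at day 1, day 2 and day 4. Each point is a gene, coloured by the limma call, and the dashed line marks equal differences. Acsl5 and Nudt7 lie farther from 0 on the authors' scale at all 3 days.

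Other genes of the pathway, from lists drawn up with earlier results known, were counted in the same fit, where 2.97%, 2.16% and 1.54% of all clusters were higher and 1.62%, 3.51% and 0.67% lower at day 1, day 2 and day 4. Of 39 other genes of peroxisomal lipid oxidation and biogenesis, 4, 8 and 5 were lower at day 1, day 2 and day 4 and none was higher, with medians of -0.03, -0.13 and -0.05. The day 4 count was 8 without HPNWT day 4 replicate 3. Hacl1, which splits 2-hydroxyacyl-CoA, was at -0.79 and the epoxide hydrolase Ephx2 at -0.42 at day 1. Aldh3a2, the fatty aldehyde dehydrogenase, was at -1.18 and the sterol carrier Scp2 at -0.37 at day 2, and the reductase Pecr at -0.61 and Scp2 at -0.33 at day 4. Of 19 other mitochondrial oxidation enzymes, 1 was higher and 2 lower at day 1, 1 higher and 5 lower at day 2, and 2 lower at day 4. Acadsb, the short and branched chain acyl-CoA dehydrogenase, was at -0.33, -0.47 and -0.39, lower at each day. Gcdh, the glutaryl-CoA dehydrogenase, was at -0.30 at day 1, Echdc1, which removes ethylmalonyl-CoA, at 0.49 at day 2, and Mcee, the methylmalonyl-CoA epimerase, at -0.32 at day 4. At day 4, 3 of the 19 were lower without HPNWT day 4 replicate 3.

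Of 29 other genes of acyl-CoA synthesis, transport and hydrolysis, 1, 1 and 1 were higher and 6, 5 and 2 lower. Acsl4, the synthetase that prefers arachidonic acid, was higher at all 3 days, by 1.10, 1.16 and 0.86, and the medium-chain synthetase Acsm5 was lower, at -0.91 and -0.83, at day 1 and day 2. Acsm1, another medium-chain synthetase, was at -0.51 at day 4, and without HPNWT day 4 replicate 3 the count of lower genes at that day was 4. Of 9 other genes of ketone body metabolism, the carriers Slc16a6 and Slc16a1 were higher at day 1 (0.86 and 0.70), Slc16a7 was higher (0.49) and the thiolase Acat1 lower (-0.38) at day 4, and none passed at day 2 in limma. Without HPNWT day 4 replicate 3, Slc16a7 was at 0.47 and did not pass (limma adjusted p = 0.0704). Of 45 other PPAR targets, 3, 1 and 1 were higher and 6, 8 and 4 lower. Cyp4f15, a cytochrome P450, was at -0.74 at day 1, and the retinol saturase Retsat at -1.17 at day 2. Mbl1, a mannose-binding lectin, was at -0.81, -0.92 and -1.10, and the omega-hydroxylase gene Cyp4a12b, which has close copies, at -2.90 at day 4, or -3.43 without HPNWT day 4 replicate 3, when 6 of the 45 were lower. Of 34 nuclear receptor partners and coregulators, none was higher and 1, 3 and 1 were lower. Prkaa2, a catalytic subunit of AMP-activated kinase, was at -0.81, -0.74 and -0.42, lower at each day, and the corepressor Ncor1 at -0.37 at day 2. At day 4, 2 of the 34 were lower without HPNWT day 4 replicate 3.

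None of 12 Kupffer cell and macrophage markers passed at any day with all 18 arrays, with medians of -0.24, -0.31 and -0.13 and mean levels of 6.50 to 7.16 in arrays labelled HPNWT and 6.67 to 7.19 in arrays labelled EGFP. None of 10 endothelial markers passed, with levels of 6.83 to 7.58 in arrays labelled HPNWT and 6.96 to 7.16 in arrays labelled EGFP. Of 10 stellate cell markers none passed at day 1, 1 was higher and 1 lower at day 2 and 1 was higher at day 4, and of 8 cholangiocyte markers 1 was higher at day 2. Of 12 lymphocyte and neutrophil markers 1 was lower at day 1, and those 12 and the 8 markers of fat and muscle all had means under the dim mark. Of 8 hepatocyte markers, Apoa1 was higher at day 1 and day 2, by 0.30 and 0.35 (limma adjusted p = 0.013 and 0.005). No other hepatocyte marker passed with all 18 arrays, and the medians of the 8 were -0.01, 0.01 and -0.01. When HPNWT day 4 replicate 3 was left out, 1 of the 12 Kupffer cell and macrophage markers was lower and 1 of the 8 hepatocyte markers higher at day 4. The part of other cells in the results was not tested.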

How the data were processed

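Liver RNA of 18 mice was measured on 18 arrays in 6 groups of 3, grouped by title. Per the labels, the authors deposited log2 values from the Transcriptome Analysis Console, made by robust multi-array averaging. The version, the probe annotation and the genome build are not given in the sources used here. The values ran from 0.695 to 13.2 over 65956 transcript clusters and 6732 control probe sets. Per the file headers, the comparison tables the authors deposited hold log2 group averages, a signed linear fold change treated as a score, a p-value and its false discovery rate, with unstated settings. Columns without a sample numbered 0.

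A model of 6 group means over all arrays was fitted to the 40161 symbol-bearing clusters by lmFit and eBayes of limma 3.58.1 under R 4.3.3, with no filter and no covariate. P-values are 2-sided and adjusted by Benjamini-Hochberg over all clusters. A gene passed under 0.05. Errors are standard errors. An exact permutation test of 3 against 3 arrays cannot go below p = 0.1 and was not used, and the number of arrays limits the precision. Nothing states how the animals were batched. The fit was tested on simulated data of 40161 clusters, with changes added to 200 of them in HPNWT at day 1. It called 33 of 50 clusters changed by 0.5 log2, 50 of 50 changed by 1 log2 and 49 of 50 changed by -1 log2, with 6 false calls among the unchanged clusters. The simulated noise was independent between arrays and held no shift of a whole array, so these rates need not hold for the real arrays.

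Genes named with full values were those that passed at any day, and Ppara, Ppargc1a and Cpt1a; others were given by role, with examples by smallest p, and at most 2 genes for each further list and day. Acot1, Acot2, Pdk4, Ech1 and the remaining examples with values were picked with those values known. The genes and lists were chosen with earlier results of these data known. Alternatives were another normalization, centring, a filter on dim clusters, array weights, an intensity trend, the negative controls as a covariate, a replicate block, only the arrays of the day, averaged clusters and leaving out each array. Promoters came from RefSeq, GRCm38.p6. Results for some genes of the further lists are not reported here.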

Additional observations from a re-analysis of the deposited data

How the results depend on the processing

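Of 15 differences called in the main setting, 405 values were computed under 27 alternatives each. No sign reversed, 357 kept the call and 48 did not. Acsl5 at all days, Bdh1 at day 1 and Nudt7 at day 1 kept it in all 27. The negative-control covariate ended the calls of Fabp1, Acaa1a and Acaa1b at day 1 and of Cpt2, Etfdh, Acaa1a, Acaa1b and Nudt7 at day 2 (Nudt7 limma adjusted p = 0.231). At day 2 the control medians of the groups did not overlap, so that fit can hardly tell the control level from the label. Median centring ended those of Acaa1a and Acaa1b at day 1, Acaa1a and Etfdh at day 2 and Cpt2 at day 4, and the fit of the arrays of a day those of Fabp1, Acaa1a and Acaa1b at day 1 and Cpt2 at day 4.

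Counts of genes that moved by over 1.5 times were these, and the shares of all clusters in the same fits are not given here. The counts alone therefore do not show whether these genes moved more than all clusters did. With array weights 6 were higher and 12 lower at day 1. The day 2 counts became 2 higher and 16 lower, the day 4 counts 2 higher and 10 lower, with 2 whose difference changed between day 4 and day 1 and 6 that differed among the HPNWT days. Median centring left 1, 3 and 1 lower at day 1, day 2 and day 4. The negative-control covariate left 1 lower at day 1 and 0 at day 2 in limma, with 2 at an unadjusted p under 0.05. The fit of only the arrays of a day gave 1, 8 and 1 lower, and 2 higher at day 2. Repeated quantile normalization gave 2 higher at day 2, the filter on dim clusters 2 higher at day 2 and 2 at day 4, and averaged clusters 1 lower at day 4. The causes were not tested.

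Leaving out single arrays gave 1 to 4 lower at day 1, 1 to 2 higher and 1 to 7 lower at day 2, 2 to 5 lower at day 4, and 0 to 4 that differed among the HPNWT days. These ranges also stand here without the shares of all clusters. The labels do not state whether replicate numbers pair the animals. Deviations of arrays with the same number correlated at -0.25 to 0.111, which does not decide it, because each deviation is from a mean of 3 arrays. A replicate block gave 3 higher and 3 lower at day 1, 1 higher and 5 lower at day 2, and 1 higher and 3 lower at day 4. In at least 1 group mean, 5 of the genes lie under the 95th percentile of the negative controls, which limits what can be said of Acot1, Acot3, Acot4, Pdk4 and Ppargc1a.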

Other observations

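Fgf21, the fasting hormone of liver and a PPARalpha target outside the list, was chosen after its values were seen. It had 4.90, 5.49 and 7.66 log2 in arrays labelled HPNWT at day 4, against 4.45, 4.19 and 4.33 in arrays labelled EGFP, with no overlap. The array at 7.66 is HPNWT day 4 replicate 3, the library that was also highest in Acot2 and Pdk4. The difference of 1.69 (SE 0.47) did not pass (limma adjusted p = 0.0789), and without that array it was 0.87 (SE 0.26, limma adjusted p = 0.105). Both group means at day 4, 6.01 and 4.33, lie under the dim mark of 6.16, so the size of the difference is uncertain. The Fgf21 difference was -0.02 at day 1 and 0.63 at day 2 (limma adjusted p = 0.994 and 0.475).

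Plin2, which coats lipid droplets, was also chosen after its values were seen. It had 10.70, 10.74 and 10.63 log2 in arrays labelled HPNWT at day 1, against 9.88, 10.19 and 10.00 in arrays labelled EGFP, with no overlap, and the difference of 0.67 (SE 0.22) did not pass (limma adjusted p = 0.0993). The Plin2 difference was 0.16 at day 2 and 0.09 at day 4 (limma adjusted p = 0.708 and 0.929). Without HPNWT day 4 replicate 3 it was -0.20 at day 4. Angptl4, another of the further PPAR targets, was at 0.04, -0.08 and -0.27 at day 1, day 2 and day 4 and did not pass.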
